A study of Mus musculus with 4 samples.

Results

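The constitutive proteasome subunits, together with the chaperones, activators and inhibitor that carry the same gene names, were examined in mouse retina after inhibition of miR-124-3p. The genes were taken from the deposited table as the protein-coding genes whose symbol is Psm, a letter from a to g and a number, leaving out Psmb8, Psmb9 and Psmb10, the catalytic subunits that interferon induces. This gave 45 of the 48897 genes in the table, of which 21886 are protein-coding. They lie on 16 chromosomes. The libraries were made from retinas of C57BL/6 mice labelled wild type (C57BL/6J in the study's methods). On postnatal day 3 the left eye received an intravitreal injection of 0.6 nmol of an antagomir against miR-124-3p in 1 μl (the anti-miR-124 group) and the right eye the same amount of a negative control with a scrambled sequence (the NC group). Retinas of several mice from more than 1 litter were mixed, and RNA was taken on postnatal day 9, 6 days after the injection. Each group had 2 RNA-Seq libraries, and the columns of the table pair 1 left-eye and 1 right-eye library by a shared number, called pair A and pair B here, and the libraries NC A, antagomir A, NC B and antagomir B. The antagomir is an antisense oligonucleotide that binds the mature microRNA, which these libraries did not measure. All antagomir libraries came from left eyes and all NC libraries from right eyes, so treatment and side cannot be told apart. Nothing in the labels ties the libraries to separate animals, so the p-values measure the spread between pooled libraries, which may be technical.

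The proteasome is the main protease of the cytosol and nucleus and degrades proteins that carry ubiquitin chains. Its core particle, the 20S, is a barrel in which outer rings of alpha subunits (Psma genes) gate the entry and inner rings of beta subunits (Psmb genes) hold the proteolytic sites, and its regulatory particle, the 19S, recognises, deubiquitinates, unfolds and feeds in the substrate. All subunits of one particle are needed together, and the subunit genes are known to be expressed at like levels and to be raised as a group by the transcription factor Nfe2l1 when the proteasome is inhibited. Interferon replaces the catalytic beta subunits by induced forms and raises the activator genes Psme1 and Psme2, which makes the immunoproteasome.

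The promoters shown here are those of a pair of constitutive catalytic genes, an interferon-responsive activator and an induced catalytic gene, since the results turn on the contrast between these kinds of gene. RefSeq windows on GRCm38.p6, from 250 bases before to 50 bases after the annotated start, were given for 37 of the 45 genes, and for 3 of those more than 1 window was given. Psma8, Psmb1, Psmb2, Psmb7, Psmc3, Psmd3, Psmd7 and Psmg2 had no window. The 4 windows read 5′ to 3′ on the strand of the gene, with the motif named for each in capitals.
Psmb5 promoter, chr14:54617946-54618245, minus strand, antioxidant response element 47 bases before the start: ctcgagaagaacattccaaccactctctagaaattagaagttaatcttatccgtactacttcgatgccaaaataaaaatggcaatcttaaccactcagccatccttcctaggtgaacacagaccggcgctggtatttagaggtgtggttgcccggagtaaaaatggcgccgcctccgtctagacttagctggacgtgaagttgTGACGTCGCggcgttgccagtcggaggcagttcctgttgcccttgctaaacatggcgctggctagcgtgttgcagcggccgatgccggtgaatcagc
Psmb6 promoter, chr11:70525107-70525406, plus strand, antioxidant response element 9 bases before the start: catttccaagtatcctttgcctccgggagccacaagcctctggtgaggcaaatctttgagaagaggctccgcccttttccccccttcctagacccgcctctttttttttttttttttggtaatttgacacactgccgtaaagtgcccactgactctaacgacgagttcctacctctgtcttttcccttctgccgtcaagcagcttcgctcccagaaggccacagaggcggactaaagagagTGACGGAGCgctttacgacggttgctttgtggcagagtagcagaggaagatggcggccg
Psme1 promoter, chr14:55578244-55578543, plus strand, core of the interferon-stimulated response element on the opposite strand, 9 bases after the start: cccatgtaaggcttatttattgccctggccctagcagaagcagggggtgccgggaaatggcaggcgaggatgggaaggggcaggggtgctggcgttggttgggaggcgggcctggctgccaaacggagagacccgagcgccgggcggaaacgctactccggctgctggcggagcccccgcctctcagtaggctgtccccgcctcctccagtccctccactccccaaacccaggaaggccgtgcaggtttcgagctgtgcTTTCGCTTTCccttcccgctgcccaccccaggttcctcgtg
Psmb8 promoter, chr17:34197945-34198244, plus strand, gamma-activated sequence 97 bases before the start: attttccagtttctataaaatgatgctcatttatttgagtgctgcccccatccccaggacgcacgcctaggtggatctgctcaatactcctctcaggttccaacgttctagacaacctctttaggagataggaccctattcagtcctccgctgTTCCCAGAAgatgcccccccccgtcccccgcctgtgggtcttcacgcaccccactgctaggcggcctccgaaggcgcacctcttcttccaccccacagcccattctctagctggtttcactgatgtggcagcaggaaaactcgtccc

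Each motif was searched on both strands of every window. The antioxidant response element, searched as TGACNNNGC and bound by Nfe2l1 and Nfe2l2, was found in the windows of 6 genes, namely Psmb5, Psmb6, Psmc6, Psmd9, Psmd12 and Psme4. This is 16.2% of the 37, beside 12.4% of all 32851 promoter windows and 16.6% of the 11957 genes tested here that had a window. The core of the interferon-stimulated response element was searched as GAAA, any 2 bases and GAAA again. It was found in 5 genes, namely Psmb3, Psmd4, Psmd9, Psme1 and Psmg4. That is 13.5% of the 37, beside 3.44% of all windows and 3.52% of these tested genes. The gamma-activated sequence, searched as TTCNNNGAA, was found in Psmd2 and Psmg1 among the 37 genes and in Psmb8. Its share of the 37 was 5.41%, beside 8.30% of all windows and 8.27% of the tested genes. The CCAAT box, bound by NF-Y, was found in 13 genes (35.1%, beside 37.4% of all windows and 42.5% of the tested genes). These matches describe letters in the window and no binding was measured.

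All of the subunits that make up a standard proteasome were detected in every library. Levels between genes were compared as TPM, counts per kilobase of gene length scaled to the same total in every library, as the mean of the 4 libraries. The 14 genes of the 20S core lay between 128 TPM (Psma3) and 328 TPM (Psmb4), with a median of 228 TPM. The 17 genes of the 19S particle lay between 79.7 TPM (Psmd11) and 274 TPM (Psmc1), with a median of 184 TPM. The 7 assembly chaperones, which are not part of the finished particle, were lower, between 26.3 TPM (Psmd10) and 69.1 TPM (Psmd5), so that their range did not reach that of either particle. The activators lay between 45.9 TPM (Psme2) and 113 TPM (Psme3), and the inhibitor Psmf1 was at 43.8 TPM.

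The order of the genes within a particle depends on the length used. With the length of the principal transcript in place of the deposited gene length, the 20S genes lay between 82.6 TPM (Psma2) and 305 TPM (Psmb6), a 3.69-fold range in place of 2.57-fold, and Psma2 moved from 254 to 82.6 TPM. Psma7 moved the other way, from 148 to 257 TPM. The chaperones stayed below the genes of both particles with either length, with a highest value of 55.4 TPM (Psmg2) by principal transcript.

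The tissue-specific forms were at the limit of detection. Psma8, the testis form of an alpha subunit, had 3 counts in NC A and 1 count in antagomir A, and 1 and 2 counts in the same order in pair B. Psmb11, the thymus form of the catalytic subunit Psmb5, had 0 and 1 counts in pair A and 2 and 0 counts in pair B. These genes did not pass the filter on low counts and were not tested, which left 43 genes.

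**Figure D1:**
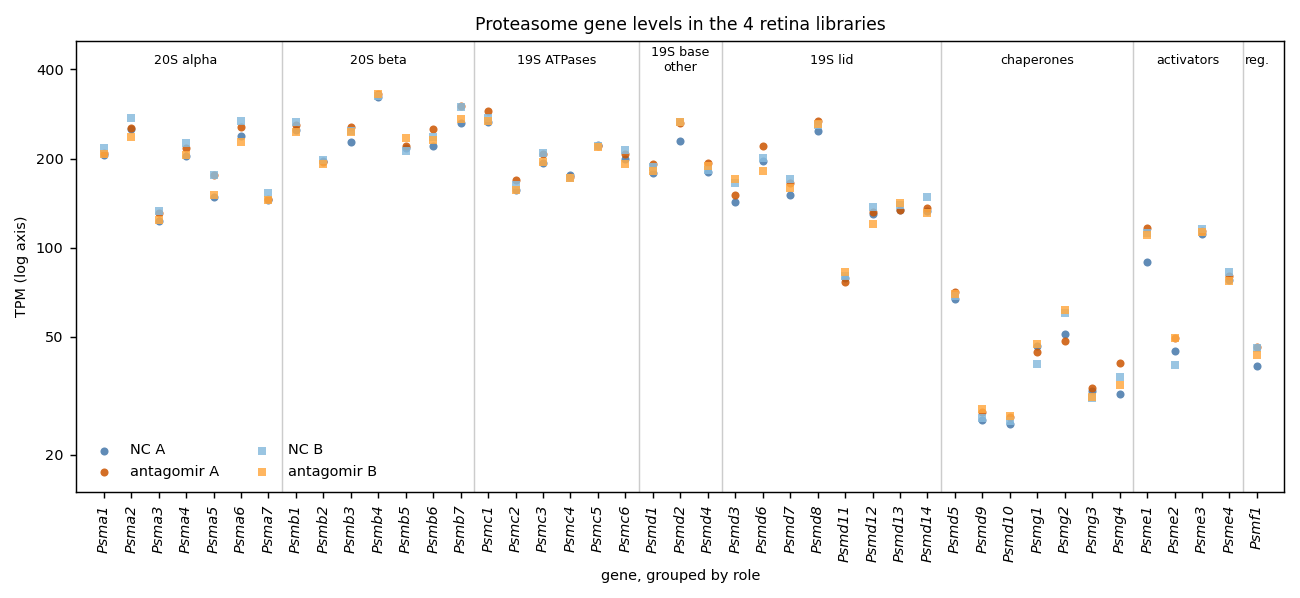
Level of each of the 43 tested genes in TPM (log axis) in each of the 4 libraries, with genes grouped by role and one point per library. The points of a gene lie close together, and the chaperones, from 26.3 TPM for Psmd10 to 69.1 TPM for Psmd5 on average, lie below the 20S genes.

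The libraries held from 16317239 to 18726963 counts, of which the 45 genes took 0.322% to 0.335%. At this depth the counting error of 1 library, at the mean count of a tested gene, was at most 9.64% (Psmg4) and as low as 1.54% (Psmd2). Rod, Müller glia, bipolar, amacrine and ganglion cell marker lists were all present at 1 TPM or more in every library. NC A stood apart, as 15 lens genes held 5.25% of its TPM and 0.00981% to 0.0152% in the others. Antagomir B also stood apart, as the summed level of 12 microglia markers was 617 TPM there and 203 to 251 TPM in the others. A list of 10 interferon response genes summed to 87.8 and 183 TPM in antagomir A and antagomir B and to 13.1 and 12.1 TPM in NC A and NC B, with all 10 higher in both pairs. In whole retina, fewer cells of a type and less RNA per cell cannot be told apart.

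Whether inhibition of miR-124-3p changed the proteasome genes was tested by the quasi-likelihood method of edgeR, with TMM scaling, which sets the libraries to a common scale from the bulk of their genes. None of the 43 genes had a Benjamini-Hochberg adjusted p-value under 0.05, and none had an unadjusted p-value under 0.05. Among all 17766 genes tested, 0.0% passed the adjusted threshold and 3.91% (694 genes) the unadjusted one, so these counts alone separate the proteasome genes little from the rest. DESeq2 also called 0 of the 45 genes at the adjusted threshold and 0 at the unadjusted one, and 34 genes in all at the adjusted one. The median log2 fold change of the 43 genes was -0.04, where the median of all genes tested was 0.00066. The values ran from -0.16 (Psma2) to 0.17 (Psme2).

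The differences were small and closely bounded. The 95% confidence interval of the log2 fold change lay within 0.5 of 0 for 42 of the 43 genes (97.7%). Taken 1 at a time, each of these intervals thus stayed under 1.41-fold in either direction, given the spread between these pooled libraries. The same held for 55.2% of all genes tested and for 82.4% of the 11888 genes with a mean count of at least 107.5, the lowest among the 43. The exception was Psmg4, the gene with that lowest count, with an interval from -0.41 to 0.57. With a block on the shared number, 41 of the 43 intervals lay within 0.5 of 0, and in DESeq2 40 of 45 did. The median size of the log2 fold change without its sign was 0.05 over the 43 genes, 0.10 over all genes tested and 0.07 over the genes of like counts. Leaving out 1 library at a time, between 37 and 41 of the 43 intervals stayed within these bounds.

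The same closeness was seen between single libraries. The highest library of a gene exceeded the lowest by 1.10-fold in the median over the 43 genes, on the scale of CPM, a library's counts scaled to a common total after TMM, beside 1.16-fold over the genes of like counts. The smallest of these ranges was 1.05-fold (Psmd8, a lid subunit) and the largest 1.27-fold (Psmg1, a chaperone of alpha ring assembly).

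**Figure D2:**
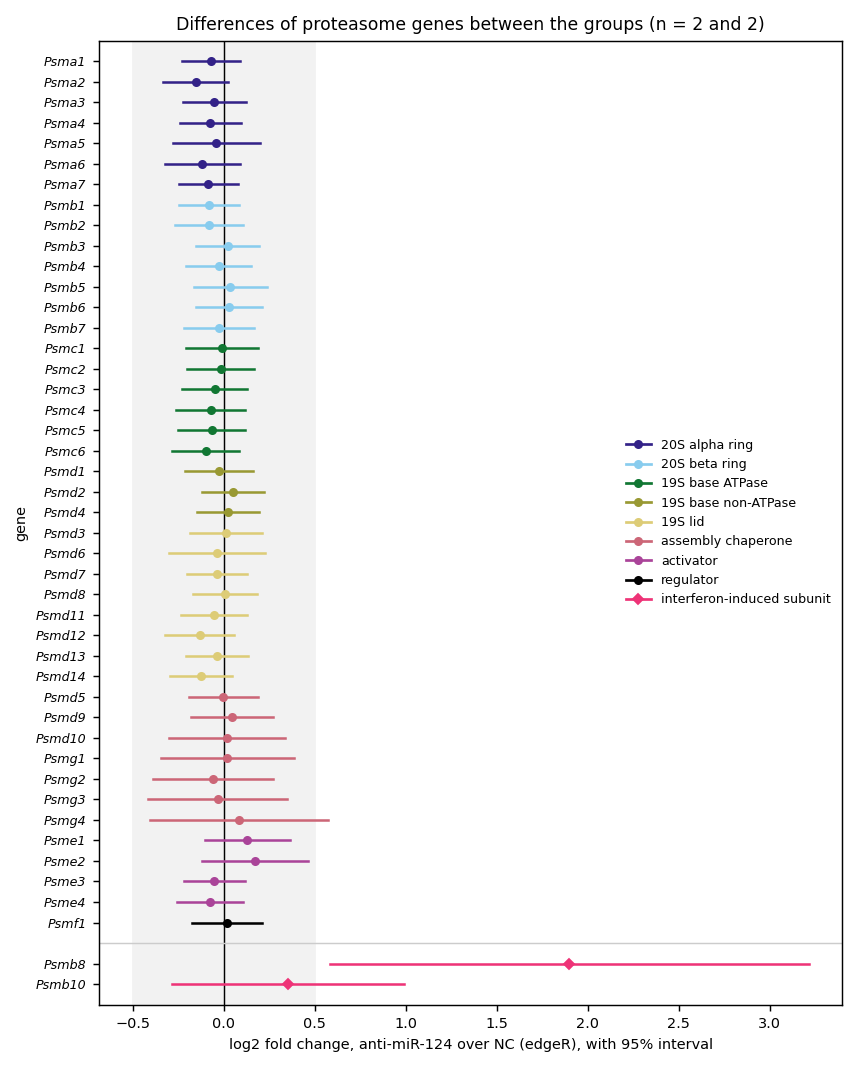
Log2 fold change of anti-miR-124 over NC with its 95% confidence interval from edgeR for each of the 43 tested genes, coloured by role, and for the interferon-induced subunits Psmb8 and Psmb10 at the bottom (2 libraries a group). The grey band marks 0.5 in either direction of 0, which holds every interval above the line but that of Psmg4.

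A slight majority towards lower values was present, and it depended on the scaling and on single libraries. By CPM, 17 of the 43 genes (39.5%) were lower after the antagomir in both pairs, beside 24.0% of all genes tested and 23.0% of the genes of like counts. Only 3 genes (6.98%), the base subunits Psmd2 and Psmd4 and the activator Psme2, were higher in both pairs, beside 22.7% of all genes. By TPM, the scale on which the lens transcripts of 1 library enter the total, 11 of the 43 rose in both pairs and 3 fell. Over all genes tested, 32.3% rose and 14.8% fell on that scale, a larger share than among the 43 in each direction. The move towards higher values by TPM was therefore not particular to the proteasome genes. With the lens genes left out of the TPM total, 8 of the 43 were higher and 12 lower, beside 25.5% and 21.2% of all genes.

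The groups of libraries did not overlap by CPM for 11 genes that were lower (25.6%), beside 16.8% of all genes tested and 16.2% of those of like counts. For 2 genes that were higher (4.65%), Psmd2 and Psme2, the groups did not overlap either, beside 16.5% of all genes. By TPM these counts were 2 lower and 8 higher of the 43, beside 9.27% and 20.8% of all genes on that scale. With the lens genes left out of the TPM total they were 11 lower and 3 higher, and the shares of all genes were not computed there. Of the 43 log2 fold changes of the test, 29 were negative, beside 49.8% over all genes tested. This count was 20 once NC A was left out, 21 once antagomir B was, and 34 once either antagomir A or NC B was.

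Antagomir B had the lowest CPM of all 4 libraries for 27 of the 43 genes, where it was lowest for 26.7% of all genes tested. NC A had the highest CPM for 24 of the 43 genes, beside 25.4% of all genes. By TPM these counts were 11 and 2, beside 15.5% and 10.2% of all genes, and NC A was the lowest for 25 of the 43 genes, beside 50.2% of all genes. These are the libraries that stood apart by their microglia and lens transcripts, and the part of either in the proteasome values was not tested.

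**Figure D3:**
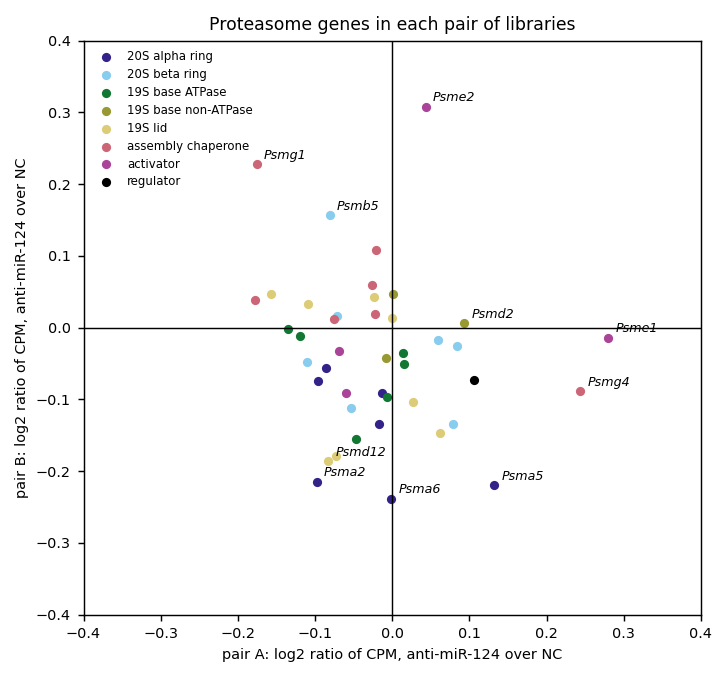
Log2 ratio of CPM of anti-miR-124 over NC in pair A (x axis) and in pair B (y axis) for the 43 tested genes, one point per gene, coloured by role. The alpha ring genes all lie below 0 in pair B, and each of the 7 assembly chaperones has ratios of opposite sign in the pairs.

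Among the roles, the alpha ring had the lowest median log2 fold change, but low values were not limited to it. All 6 ATPases of the 19S base were negative too, with a median of -0.06. The lid genes Psmd12 and Psmd14 stood at -0.13 and -0.12. All 7 alpha ring genes (Psma1 to Psma7), which form the gate of the core particle, had a negative log2 fold change. Their median was -0.07 and their range from -0.16 to -0.04. Their summed level was 579 CPM in both NC libraries, 568 CPM in antagomir A and 525 CPM in antagomir B. The lowest sum was thus in pair B, where all 7 genes were lower with a median log2 ratio of -0.13, while the median in pair A was -0.02. By CPM, 6 of the 7 were lower in both pairs, beside 24.0% of all genes tested. For 5 of them the groups did not overlap, beside 16.8% of all genes tested. On the scale of TPM the alpha ring sums of pair A were 1318 in NC A and 1390 in antagomir A. Those of pair B were 1448 and 1297. The log2 ratio of the sums in pair A was thus 0.077 by TPM and -0.029 by CPM. Over all genes tested the median log2 ratio of pair A was 0.098 by TPM and -0.009 by CPM. The change of sign with the scaling was therefore not particular to these genes. Without antagomir B the median log2 fold change of the 7 genes was -0.02. Leaving out NC A, antagomir A or NC B instead, it was -0.08, -0.13 and -0.10. In each of these fits 6 or 7 of the 7 genes were negative.

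Psma2 had the smallest p-value of the 43 genes. It stood at 78.7 and 78.1 CPM in NC A and NC B, and at 73.5 and 67.3 CPM in the antagomir libraries. Both antagomir libraries were below both NC libraries, with antagomir B the lowest. The log2 fold change was -0.16 (SE 0.074, edgeR's adjusted p = 0.989), with a 95% interval from -0.33 to 0.02. Without antagomir A, Psma2, Psma6, Psmd6 and Psmd12 had an unadjusted p-value under 0.05, beside 10.1% of all genes tested in that fit, and none an adjusted one.

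The beta ring showed no shared direction. Of its 7 genes, 4 had a negative and 3 a positive log2 fold change, with a median of -0.03, and only Psmb1 and Psmb2, which carry no proteolytic site, were lower in both pairs. Each of the 3 catalytic genes had log2 ratios of opposite sign in the pairs.

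Psmb5, the chymotrypsin-like subunit and the target of proteasome inhibitors such as bortezomib, had 62.3 and 55.4 CPM in NC A and NC B and 58.9 and 61.8 CPM in the antagomir libraries. Both antagomir values lay between the NC values. Its log2 fold change was 0.04 with a 95% interval from -0.16 to 0.24.

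Psmb6, the caspase-like subunit, had 75.1 and 73.7 CPM in the NC libraries and 79.5 and 72.4 CPM in antagomir A and antagomir B. The groups overlapped, since the antagomir libraries were the highest and the lowest of the 4. This gave a log2 fold change of 0.03 with an interval from -0.15 to 0.21.

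Psmb7, the trypsin-like subunit, had 92.0 and 95.1 CPM in the NC libraries and 97.2 and 86.7 CPM in the antagomir libraries. Again antagomir A was the highest and antagomir B the lowest. The fitted log2 fold change was -0.03 with an interval from -0.22 to 0.17. Psmb4, a non-catalytic beta subunit and the highest of the 43 genes in TPM by deposited length, had 101 and 93.2 CPM in the NC and 96.2 and 94.3 CPM in the antagomir libraries, with the groups overlapping and a log2 fold change of -0.03.

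The 6 ATPases of the 19S base (Psmc1 to Psmc6), which unfold the substrate and thread it into the core, had log2 fold changes from -0.10 to -0.01 with a median of -0.06. All 6 were lower in pair B and 4 in pair A, and antagomir B was the lowest for all 6. Only for Psmc6, with 103 and 100 CPM in the NC and 99.2 and 90.1 CPM in the antagomir libraries, did the groups not overlap. The summed TPM of these genes was 1212 and 1267 in NC A and antagomir A and 1252 and 1199 in NC B and antagomir B. It was higher in the first pair and lower in the second. Its log2 ratio in pair A was 0.063, beside a median of 0.098 over all genes tested by TPM.

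Of the other base subunits, Psmd2 gave the highest log2 fold change among the genes of both particles. This scaffold, which docks ubiquitin receptors and shuttle proteins, had 231 and 243 CPM in the NC libraries and 246 and 244 CPM in the antagomir libraries. NC A was the low one, and the others lay within a few CPM of each other. The log2 fold change was 0.05 with an interval from -0.12 to 0.22. Psmd4, a ubiquitin receptor, had 81.3 and 75.8 CPM in the NC and 81.4 and 78.3 CPM in the antagomir libraries, where the groups overlapped. Psmd1, the other large scaffold, had a log2 fold change of -0.03.

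Of the 8 lid genes, 6 had a negative and 2 a positive log2 fold change, with a median of -0.04. Psmd14, the deubiquitinase that cuts the ubiquitin chain off the substrate, had 67.7 and 68.6 CPM in the NC libraries and 64.4 and 60.6 CPM in the antagomir libraries. Both antagomir libraries were below both NC libraries. Its log2 fold change was -0.12 (SE 0.070, edgeR's adjusted p = 0.989), with a 95% interval from -0.29 to 0.04.

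Psmd12, a structural lid subunit, had 73.7 and 71.2 CPM in the NC libraries and 69.6 and 62.5 CPM in the antagomir libraries. Antagomir B was the lowest, and the groups did not overlap. This gave a log2 fold change of -0.13 (SE 0.079, edgeR's adjusted p = 0.989). The remaining 6 lid genes differed in direction between the pairs, among them Psmd7, the partner of Psmd14, with log2 ratios of 0.03 and -0.10 in pairs A and B.

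The 7 assembly chaperones also showed no shared direction. None was higher in both pairs or lower in both, since 6 were lower in pair A and 6 were higher in pair B. Psmg1 gave the widest spread, with log2 ratios of -0.18 and 0.23, and Psmg4 the reverse, with 0.24 and -0.09. Psmg4 had the fewest counts, 94 to 118, and the chaperones had a median standard error of the log2 fold change of 0.14 beside 0.08 over all 43 genes. Psmd10, also known as gankyrin and the lowest of the 43 in TPM, had 12.2 and 11.4 CPM in the NC libraries and 11.9 CPM in both antagomir libraries. Its antagomir values lay between the NC values, with a log2 fold change of 0.02 (interval -0.30 to 0.33).

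The activators held the highest log2 fold changes of the 43 genes. Psme2, which with Psme1 forms the interferon-inducible PA28 ring, had 20.8 and 17.1 CPM in the NC libraries and 21.4 and 21.1 CPM in the antagomir libraries. The groups did not overlap, but in pair A the libraries differed by a log2 ratio of 0.04 only, against 0.31 in pair B. The fitted log2 fold change was 0.17 (SE 0.12, edgeR's adjusted p = 0.989), with a 95% interval from -0.12 to 0.46. It was 0.03 without NC B and 0.32 without NC A.

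Psme1 had 28.7 and 32.8 CPM in the NC libraries and 34.9 and 32.5 CPM in the antagomir libraries. NC A was the low one, and in pair B the libraries were nearly level. The log2 ratios were 0.28 and -0.01, and the log2 fold change was 0.13 (standard error 0.097), which came to 0.04 without NC A, 0.08 without antagomir A and 0.23 without NC B. The partners of 1 ring thus differed in which pair carried the higher value.

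The activators that interferon does not induce had negative values. Psme3, the nuclear PA28 gamma, had 101 and 96.2 CPM in the NC libraries and 96.2 and 94.0 CPM in the antagomir libraries, with a log2 fold change of -0.05 and overlapping groups. Psme4, also known as PA200, had 178 and 172 CPM in the NC libraries and 171 and 162 CPM in the antagomir libraries, which did not overlap, with a log2 fold change of -0.08 (interval -0.26 to 0.11). Psmf1, an inhibitor of the core in the test tube, had 49.2 and 51.5 CPM in the NC and 53.0 and 49.0 CPM in the antagomir libraries. Its groups overlapped, and its log2 fold change was 0.02.

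The total of the proteasome genes was near level. The 45 genes summed to 6671 and 7110 TPM in NC A and NC B and to 7102 and 6823 TPM in the antagomir libraries. The log2 ratio of the sums was 0.09 in pair A and -0.06 in pair B, so the pairs went in opposite directions on this scale. With lens genes left out of the TPM total, NC A rose to 7041 TPM and the log2 ratio of pair A came to 0.01. By CPM the sums were 3397 and 3316 in NC A and NC B and 3357 and 3196 in antagomir A and antagomir B. On that scale both pairs were slightly lower, with log2 ratios of -0.02 and -0.05.

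The interferon-induced catalytic subunits were compared with the constitutive ones they replace. Psmb8, the counterpart of Psmb5, had 13 and 18 counts in NC A and NC B and 30 and 94 counts in the antagomir libraries. Both antagomir libraries were above both NC libraries, and antagomir B was the highest. Its log2 fold change was 1.90 (standard error 0.55, interval 0.58 to 3.21, unadjusted p = 0.0118 and adjusted p = 0.989, edgeR), so it did not pass the adjusted threshold. Its adjusted p-value was 6.09e-05 in edgeR without the low-count filter, a fit that called 379 genes in all. In DESeq2 its adjusted p-value was 0.819. Without antagomir A the log2 fold change was 2.45, and without antagomir B it was 0.96.

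In TPM, Psmb8 stood at 0.923% and 1.28% of Psmb5 in NC A and NC B and at 2.13% and 5.75% in the antagomir libraries. Psmb9 had 5 and 6 counts in NC A and NC B and 7 and 20 in the antagomir libraries, too few to pass the filter. It stood at 0.404% and 0.441% of Psmb6 in the NC libraries and at 0.504% and 1.43% in the antagomir libraries. The induced counterpart of Psmb7 was the most abundant of the 3. Psmb10 stood at 5.05% and 3.48% of Psmb7 in the NC libraries and at 4.30% and 6.86% in the antagomir libraries. The constitutive gene exceeded its induced counterpart in every library, and the share was highest in antagomir B for all 3. That library is also the one with the highest sums of microglia and interferon response genes, and their part in these shares was not tested.

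Psmb10 had 110 and 88 counts in NC A and NC B and 105 and 165 in the antagomir libraries, so that the groups overlapped. It was not higher in both pairs, with log2 ratios of -0.15 and 0.84 and a log2 fold change of 0.35 (standard error 0.27). The 95% interval of Psmb8 does not reach any of the intervals of the catalytic genes Psmb5, Psmb6 and Psmb7, whose upper ends are 0.24, 0.21 and 0.17. This side-by-side reading of intervals is not a test of the difference.

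**Figure D4:**
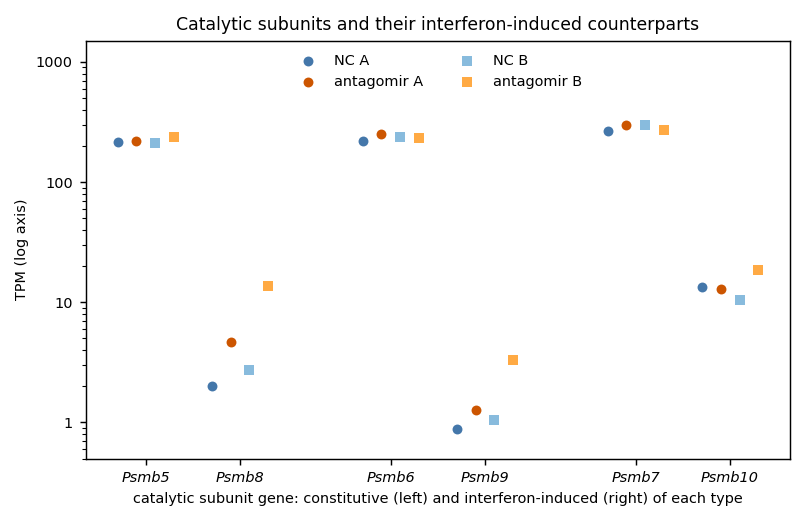
TPM (log axis) of the constitutive catalytic genes Psmb5, Psmb6 and Psmb7 and of their interferon-induced counterparts Psmb8, Psmb9 and Psmb10 in each of the 4 libraries, one point per library. The constitutive genes lie at nearly the same height in all libraries, and the highest point of each induced gene is antagomir B, at 5.75%, 1.43% and 6.86% of the constitutive gene.

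Other genes of the ubiquitin-proteasome system, the interferon-induced subunits aside, were near level as well. Of 27 listed genes, 26 were tested, none passed the adjusted threshold in edgeR and 1, Psmb8, had an unadjusted p-value under 0.05. By CPM, 8 of the 26 were higher in both pairs, beside 22.7% of all genes tested, and 5 were lower, beside 24.0%. The median log2 fold change of the 26 was 3.1e-05. Leaving out Psmb8, Psmb9 and Psmb10 left 24 genes, of which 7 were higher and 5 lower in both. Log2 fold changes of these 24 genes ran from -0.10 to 0.22, and their median was -0.005. The 9 further subunits, partners and assembly factors, which include the ubiquitin receptor Adrm1, the assembly factor Pomp and the deubiquitinases Usp14 and Uchl5, had log2 fold changes from -0.08 to 0.05. The 4 ubiquitin genes ranged from -0.10 to 0.004 and the 6 shuttling and unfolding genes, among them the ATPase Vcp, from -0.05 to 0.12. For Uba1 and Uba6, the enzymes that activate ubiquitin, the values were 0.09 and 0.12, and both were higher in both pairs.

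The 3 listed regulators of subunit transcription were higher in both pairs by CPM, beside 22.7% of all genes tested. Nfe2l1, the factor that raises subunit genes on proteasome inhibition, had 166 and 176 CPM in the NC libraries and 172 and 178 CPM in the antagomir libraries. The groups overlapped, and its log2 fold change was 0.03 with a standard error of 0.076. Ddi2, the protease that releases active Nfe2l1, had 93.9 and 96.8 CPM in the NC and 100.4 and 111 CPM in the antagomir libraries, a log2 fold change of 0.15 (interval -0.04 to 0.34). Nfe2l2, the regulator of the antioxidant response, had 26.5 and 27.3 CPM in the NC and 27.9 and 34.7 CPM in the antagomir libraries, a log2 fold change of 0.22 (interval -0.06 to 0.50). For Ddi2 and Nfe2l2 the groups did not overlap, as for 16.5% of all genes tested in that direction. None of the 3 passed the threshold. Of the 6 genes with an antioxidant response element in the promoter window, Psmd12, Psmc6 and Psme4 were lower in both pairs by CPM. Over all genes tested that share was 24.0%. Psmb5, Psmb6 and Psmd9 differed in direction between the pairs. Of the 5 with the interferon-stimulated core, only Psmd4 went the same way in both pairs, by log2 ratios of 0.002 and 0.05.

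Reads from near-identical copies and overlapping genes bear on these counts. The table holds 28 pseudogenes described as proteasome genes, of which 12 had no count in any library, and together they held 234 to 253 counts per library, few beside the 54715 to 60254 counts of the 45 genes. Psme2b, a copy of Psme2, had 2 to 6 counts. Of the 45 genes, 12 overlap a gene on the opposite strand and 4 a gene on the same strand, and the strand setting of the counting is not given in the sources used here, so reads of overlapping genes may have been shared.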

How the data were processed

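The values used are the counts of reads on each gene, which the authors deposited unnormalized for 4 mouse retina libraries, and the deposited gene lengths. Another 4 deposited columns hold RPKM and were not used. HISAT2 and mm9 are named in the submitters' processing notes, but of 36837 symbols matched, 99.8% overlapped their GRCm38 position, all 45 proteasome genes included, so positions are read as GRCm38. The counting tool is not given in the sources used here. The retinas of each group were pooled.

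Columns were assigned to groups by eye, and paired by their shared number. Same-numbered libraries deviated from their group means with a correlation of -0.16, so the number was not used as a block. No libraries were duplicates. The most alike libraries were of different groups, by a chi-squared value per degree of freedom on their counts, lower for more alike libraries. It was 3.44 for antagomir A and NC B, 9.20 for the antagomir libraries and 24.5 for the NC libraries. TPM came from counts and deposited lengths, and from GENCODE M21 principal transcripts as an alternative.

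Counts were tested with edgeR 4.0.16 in R 4.3.3 (TMM, filterByExpr, quasi-likelihood F test, both directions, no covariate, 17766 genes, Benjamini-Hochberg adjustment over all of them, threshold 0.05). Log2 ratios within pairs were taken from CPM with no prior count added. DESeq2 1.42.0, Python 3.11.15, pandas 2.3.3 and scipy 1.17.1 were also used. The code was tested on simulated data. An exact permutation test of 2 against 2 libraries cannot go below p = 0.333 and was not used. The members and lists were chosen with earlier results of these data known. Genes named with values in every library are the catalytic subunits, the activators, Psmf1, the highest and lowest in TPM, the 3 genes with the smallest p-values in each direction, Psmb8, Psmb9, Psmb10 and Nfe2l1. Others so described (Psmc6, Psmd4, Ddi2, Nfe2l2) were chosen after their values were seen. Of the listed genes, Paaf1 was not analysed here.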

Additional observations from a re-analysis of the deposited data

How the results depend on the processing

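No proteasome gene passed the adjusted threshold under any of the normalizations, filters, designs or tests run, DESeq2 included. With the replicate block on the shared number the median log2 fold change of the 43 genes was -0.04 and 0 genes passed. The block lowered the genes with an unadjusted p-value under 0.05 from 694 to 376, and changed no call among the proteasome genes. Crossed numbers, an alternative chosen after seeing the data because the pairing correlation was negative, gave 160 calls over all genes, 0 among the proteasome genes and 1 among the other ubiquitin-proteasome genes (Psmb8, adjusted p = 0.048), and without a low-count filter that count was also 1 and their median log2 fold change 0.012. With TPM the genes higher and lower in both pairs were 11 and 3, and those without overlap 8 and 2. With lens genes left out of TPM, an alternative also chosen after seeing the data, 8 were higher and 12 lower in both pairs. Those without overlap were then 3 higher and 11 lower. The cause of these moves was not tested.

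Leaving out 1 library at a time, which assumes that the lone library of a group varies like the other group, moved the median of the proteasome genes between -0.079 and 0.0055 and the median of the other ubiquitin-proteasome genes between 0.0036 and 0.044, with 0 to 1 of the latter called. The log2 fold change changed sign for Psmb5 (-0.046 to 0.12), Psmb6 (-0.040 to 0.10), Psmb7 (-0.11 to 0.059), Psmb4 (-0.087 to 0.032), Psmd10 (-0.031 to 0.064), Psmf1 (-0.042 to 0.078) and Nfe2l1 (-0.0056 to 0.075). Without a change of sign, the log2 fold change ranged from 0.032 to 0.32 for Psme2, 0.039 to 0.23 for Psme1 and 0.96 to 2.45 for Psmb8. The depth limits what can be said of Psmb9, Psma8 and Psmb11, with at most 20 counts in a library, and of Psmg4.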
